A study of Xenopus laevis with 35 samples.

Results

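The gene described here is id2.L (NCBI gene ID 398111), the L homeolog of Xenopus laevis inhibitor of DNA binding 2. It was read from 1 probe, printed as the neighbouring spots 99 and 100, whose values were averaged on every array. It is 1 of 243 genes named on the array and 1 of 449 probes. The gene was chosen with its differences between exposed and control brain already known. Those differences are therefore given below as a description with no test, and they support nothing by themselves. Differences between exposed groups and between times were tested. They use the same arrays and were picked with earlier results known, so they are not independent of the choice.

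Id proteins are helix-loop-helix proteins that lack a DNA-binding region. They pair with E proteins and so keep tissue-specific basic helix-loop-helix (bHLH) factors, such as the neurogenins and NeuroD, from activating their targets. In the vertebrate nervous system Id genes are known as targets of bone morphogenetic protein (BMP) signalling and are associated with progenitors that have not yet differentiated. The tadpole brain grows and is remodelled under thyroid hormone during metamorphosis.

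The study asked how inhibitors of the thyroid axis alter gene expression in the brain of tadpoles exposed from NF stage 54, early in metamorphosis. Control tadpoles received no compound. The exposed tadpoles were held continuously in a single compound, either 100 mg/L of MMI, 20 mg/L of PTU or 4 mg/L of PER. Brains were taken after 24, 48 and 96 h. As background knowledge, since the labels give only short forms, MMI is methimazole and PTU is propylthiouracil, thionamides that inhibit thyroid peroxidase, and PER is perchlorate, which blocks iodide uptake by the thyroid. Per the labels, 10 tadpoles from 2 tanks were taken for each treatment and time and 3 separate RNA pools were made. Each array is thus a pool of animals. With 3 pools from 2 tanks, the pools of a group are not 3 independent exposures, and the tests below treat arrays as the unit. Each of the 12 groups of treatment and time had 3 arrays, except PER at 24 h with 2, which makes 35 arrays. Each compound was given at a single concentration, the concentrations differ, and no dose series was measured.

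One array was apparently present under a pair of labels. PER 24 h replicate 1 and PER 48 h replicate 3 had a Pearson correlation of 0.999 over the 67 brighter probes, against 0.960 for the next closest pair of arrays. Of 782 spots compared, 762 (97.4%) had a ratio within 1% of the median ratio of 1.04. The number of distinct arrays is therefore 34, and that of distinct PER arrays 7. Neither label could be preferred, so both were kept. Several PER differences, exact tests, ratios and correlations below are also given without both. The limma p-values and intervals of id2.L are given only with both labels kept.

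Arrays carried 79 to 241 probes above background, defined as more than 2 background SDs. Array background was highest in control brain, with a median SD of 1051 scaled units, against 614 with MMI, 582 with PTU and 349 with PER. The mean correlation of an array with the others of its group was 0.407 to 0.784 among control arrays and 0.764 to 0.950 among exposed arrays. Of the 25 brain markers listed, 7 were named on the array, and 4 of them (gap43.S, mbp.S, npy.S and msi1.S) were above background on 28 to 34 arrays. The other brain markers were above background on fewer, dcc.L on 2 and neurod1.L and dlx2.L on 11 each. For msi1.S only 3 of 8 control arrays were above background. The summed brain markers ranged from 9579 to 40681 on control arrays, from 23007 to 41242 with MMI, from 20891 to 57469 with PTU and from 30102 to 60039 with PER. The pituitary marker gh1.S, growth hormone, was above background on 33 arrays and prl.1.L, prolactin, on 1. The summed pituitary markers, 2 of 5 on the array, ranged from 2473 to 10794 in control and from 819 to 11390 over the exposed arrays. For immune cells 2 of 6 markers were on the array. Of these il1b.S was above background on 2 arrays and casp1.L on 29, and their sum ranged from 777 to 9122 in control, 3091 to 6520 with MMI, 283 to 8947 with PTU and 1243 to 2543 with PER. Of the listed muscle and gut markers on the array, myf5.L was above background on 1 array and fabp2.L on 5. Their highest values were 1079 and 2824 in control and 2084 and 1737 in exposed brain, and the lowest was 0 in every treatment. No listed red blood cell, epidermis or retina marker was among the genes named on the array. Further genes of such cells were looked up after the values of the lists were seen. The haemoglobin gene hbd.S was above background on 7 of the 29 arrays with a value. Its highest value was 1273 in control, 3946 with MMI and 2145 with PTU (n = 9 each), and 1557 with PER (n = 2). The photoreceptor factor crx.L was above background on 4 of 35 arrays, and its highest value was 6696 in control and 1431, 1103 and 928 with MMI, PTU and PER. The muscle factor myf6.L was above background on 6 of 34 arrays, with highest values of 7809 in control and 1494, 2029 and 1124 in the exposed groups. The muscle acetylcholine receptor subunit chrna1.L was above background on 1 of 35 arrays, with means of 713 ± 855 (SD, n = 9) in control, 43.1 ± 517 (n = 9) with MMI, 96.9 ± 194 (n = 9) with PTU and 509 ± 414 (n = 8) with PER. The part of all these markers in the id2.L values was not tested.

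In unexposed brain id2.L was above background on all 9 arrays, at 2.94 to 12.4 background SDs. Intensities are given as scaled linear values, which compare arrays for 1 probe and do not compare genes. At 24 h the control arrays read 4491, 9160 and 4793. At 48 h they read 4296, 5392 and 5544. At 96 h they read 5804, 5819 and 4960. Apart from replicate 2 at 24 h, the control arrays lay in a narrow band whose bounds are 4296 and 5819, and the 3 control groups overlapped. The mean over the 9 arrays was 5584 ± 1449 (SD, n = 9).

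With MMI the readings were lowest at 24 h and highest at 48 h. The 24 h arrays read 1565, 477 and 1177, of which only the first was above background, so this group mean rests partly on values within the noise. At 48 h the arrays read 4681, 2839 and 5607. At 96 h they read 3209, 2131 and 2058, the last not above background. The 24 h arrays were all lower than any other MMI array, while at 48 h 2 of 3 arrays lay within the control band. Over all times the MMI mean was 2638 ± 1655 (SD, n = 9), with 6 of 9 arrays above background.

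With PTU the readings were low at each time. The 24 h arrays read 1730, 1473 and 3411, the 48 h arrays 910, 2256 and 1982, and the 96 h arrays 2604, 1992 and 1890. The first 24 h array and the first 48 h array were not above background. Every PTU array lay under every control array, and the 3 PTU groups overlapped. The mean was 2028 ± 704 (SD, n = 9).

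With PER the readings were lowest at 24 h and highest at 96 h. The 24 h arrays read 1245 and 1183, the 48 h arrays 1269, 3073 and 1245, and the 96 h arrays 2509, 3819 and 4059. The value of 1245 at both 24 h and 48 h comes from the array present under both labels. All 8 PER arrays were above background and all lay under the lowest control array. The mean was 2300 ± 1229 (SD, n = 8).

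**Figure D1:**
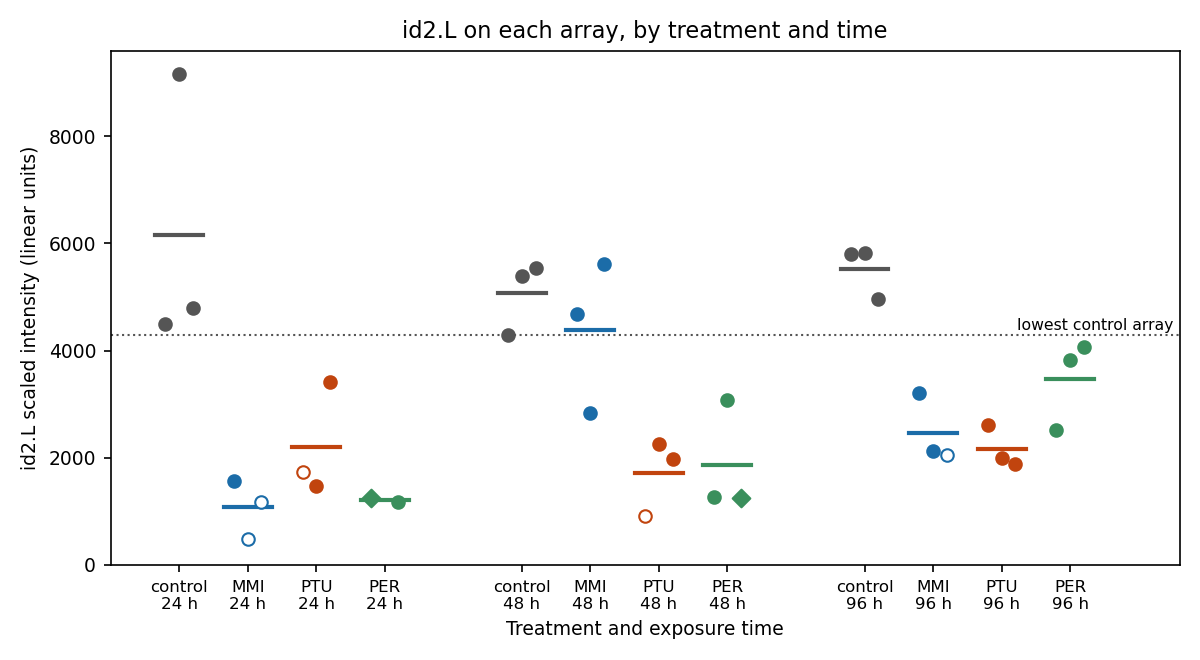
Scaled id2.L intensity (linear units, vertical axis) on each of 35 arrays, grouped by treatment and exposure time (horizontal axis). Points are arrays, open where id2.L was not above background and diamonds for the PER array present under both labels, short lines are group means, and the dotted line is the lowest control array (4296), above which only 2 exposed arrays, both MMI 48 h, are seen.

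Of the 26 exposed arrays, 24 lay below the lowest control array, 4296. The exceptions were both MMI at 48 h. With the doubly labelled PER array counted once the figure was 23 of 25, and without it 22 of 24. With the values as deposited, before scaling, 22 of 26 lay below the lowest control, and the number was 20 for spot 99 alone and 19 for spot 100 alone. Ranked among the probes of its own array, id2.L stood at a median percentile of 89.2 in control, 80.1 with MMI, 83.6 with PTU and 80.7 with PER. On that rank scale 13 of 26 exposed arrays fell below the lowest control percentile, 81.8, so the separation of groups was smaller in ranks than in intensity.

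Array background moved with treatment, as given above, and id2.L was also expressed in units of each array's own background SD. Its median was then 4.72 in control, 3.77 with MMI, 3.55 with PTU and 6.93 with PER. With PER, where background was lowest, id2.L thus stood further above background than in control although its intensity was lower. The part of background in the differences was not tested.

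**Figure D2:**
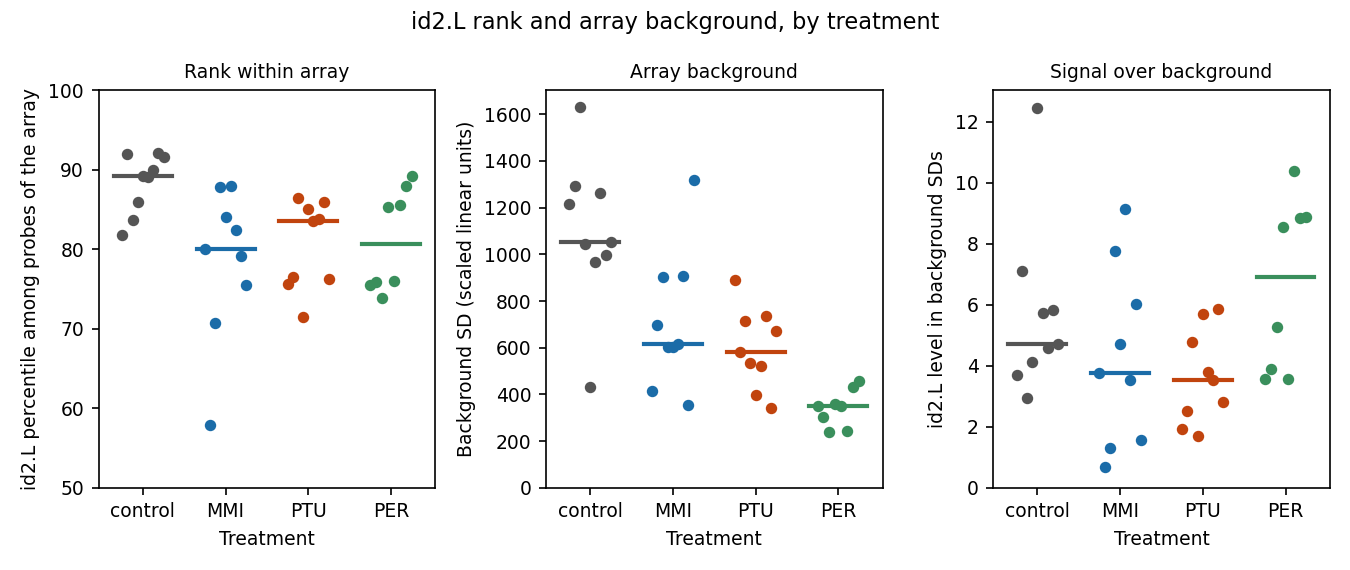
Percentile of id2.L among the probes of its array (left, axis from 50 to 100), background SD in scaled linear units (middle) and id2.L in background SDs (right), by treatment. Points are arrays and lines are medians, with background medians of 1051, 614, 582 and 349 for control, MMI, PTU and PER.

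The 12 group means formed a graded order with no clean break. From high to low they were control 24 h (6148 ± 2613), control 96 h (5528 ± 491), control 48 h (5077 ± 681), MMI 48 h (4376 ± 1409), PER 96 h (3462 ± 834) and MMI 96 h (2466 ± 644). Then came PTU 24 h (2205 ± 1053), PTU 96 h (2162 ± 387), PER 48 h (1862 ± 1048), PTU 48 h (1716 ± 711), PER 24 h (1214 ± 43.9, n = 2) and MMI 24 h (1073 ± 552). Values are mean ± SD over 3 arrays where no n is given. Control groups took the 3 highest places and MMI 24 h the lowest. Among the 11 neighbouring pairs in this order, the gap exceeded the larger SD of the pair only between PER 96 h and MMI 96 h, 996 against 834 units. The ranges of neighbours overlapped in all 11 pairs, that pair included.

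Set against control brain of the same time, the mean intensity was at least 2-fold lower in 7 of 9 combinations of compound and time, the fold rule that the labels describe for the authors' own gene list. At 24 h the control mean was 5.73 times the MMI mean, 2.79 times the PTU mean and 5.07 times the PER mean. At 48 h it was 1.16, 2.96 and 2.73 times these means, and at 96 h 2.24, 2.56 and 1.60 times. MMI at 48 h and PER at 96 h were the combinations under 2-fold. MMI at 48 h was also the only one of the 9 whose arrays overlapped with control, and with the values as deposited its mean was above the control mean, with a control to MMI ratio of 0.821. The comparisons at one time share their control arrays, so their low values are not independent of each other. These counts, and those of arrays below the lowest control, come from the comparisons that chose the gene. They were not set against the share over all probes and are no result by themselves.

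On the log2 scale used for fitting, id2.L averaged over the 3 times was lower than control by -1.31 (SE 0.31) with MMI, -1.47 (SE 0.31) with PTU and -1.48 (SE 0.32) with PER. As folds these are 2.48, 2.78 and 2.78 times lower. By time the differences were -2.51, -0.26 and -1.17 with MMI at 24, 48 and 96 h. With PTU they were -1.47, -1.61 and -1.34, and with PER -2.20, -1.53 and -0.69, each with an SE of 0.54 except 0.60 for PER at 24 h. MMI and PER thus showed their largest differences at 24 h in this scaling, while those of PTU differed between times by less than 1 SE. With quantile normalization the MMI difference was larger at 96 h (-1.58) than at 24 h (-1.49), and that of PER was -1.08 at both 24 and 48 h. Without the doubly labelled array the PER differences were -2.24 at 24 h, -1.32 at 48 h and -1.42 over the 3 times.

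Scaling moved the size of these differences. Scaled on the median of all probes without empty cells, the mean differences were -0.64, -0.79 and -0.82 for MMI, PTU and PER, and with quantile normalization they were -1.10, -0.97 and -0.92. The first scaling turned the sign at MMI 48 h (0.14) and PER 96 h (0.19). In the main scaling the median change of all tested probes was -0.08, -0.18 and -0.17, and that of the 67 brighter probes 0.22, 0.04 and 0.17.

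**Figure D3:**
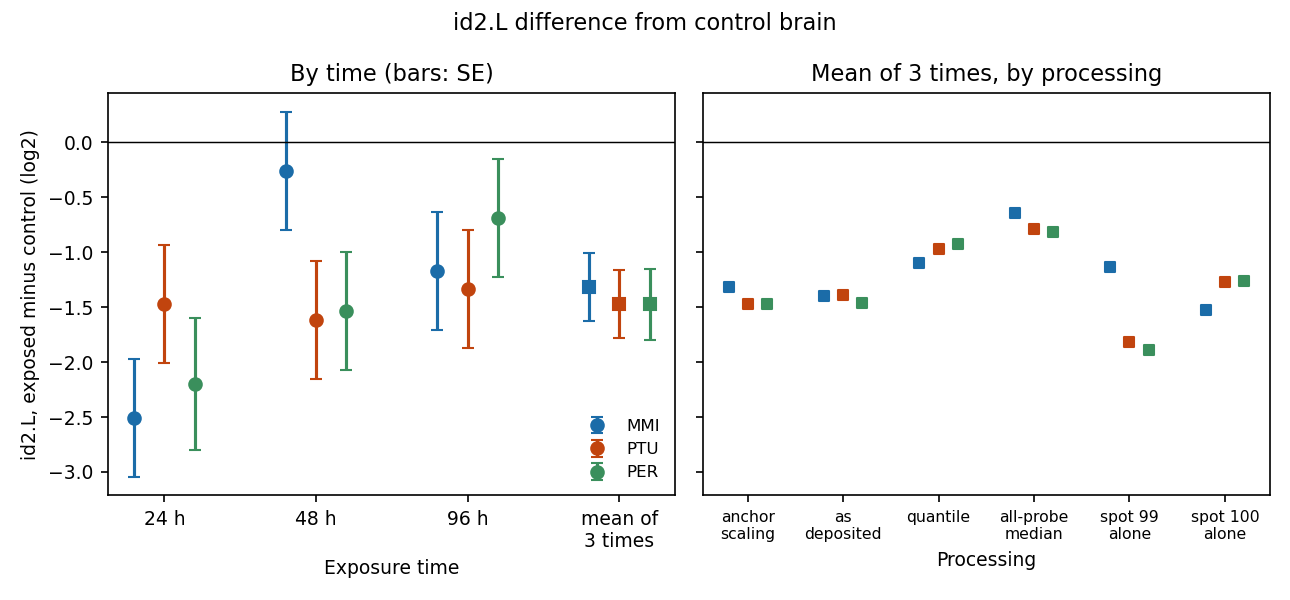
Exposed minus control difference of id2.L on the log2 scale (vertical axis). The left panel shows each time and the mean of 3 times with SE bars, and the right panel the mean of 3 times under 6 ways of processing. All mean differences lie below 0, between -0.64 and -1.89.

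In RNA from whole brain, fewer cells with id2.L and less id2.L RNA per cell cannot be told apart. Over all probes, limma called 0.679% higher and 0.452% lower with MMI, 1.83% and 2.51% with PTU, and 0.68% and 0.907% with PER at an adjusted p under 0.05 for the mean of 3 times. Nothing is read from these shares about id2.L, since the same contrasts chose it. Among the 67 brighter probes, those with no empty cell and above background on at least 18 arrays, 2 had a change at or below that of id2.L with each compound, id2.L itself included. Over all probes tested, dim ones included, 47 of 442 did with MMI, 39 of 438 with PTU and 42 of 441 with PER. Among the brighter probes the other was rpl35a.S, which encodes a ribosomal protein, with MMI and PER, and csnk1a1.L, casein kinase 1 alpha, with PTU.

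A ratio to another probe on the same array needs no scaling. The 18 probes above background on all 35 arrays, which also set the scaling, were used in this way. With MMI the ratio of id2.L to the probe was lower than in control for 18 of 18 probes, with a log2 change from -0.74 (csnk1a1.L) to -1.94 (tubb4b.L, a beta tubulin) and a median of -1.40. With PTU it was lower for 17 of 18, from 0.12 (csnk1a1.L) to -2.68 (tubb4b.L), median -1.57. With PER it was lower for 18 of 18, from -0.58 for 1 of 3 probes of rpl8.S, a ribosomal protein, to -2.99 for the unnamed probe 357, median -1.33, and without the doubly labelled array it was lower for 18 of 18 with a median of -1.31. The one ratio that was not lower, that to csnk1a1.L with PTU, is to a probe whose own level was lower with PTU (11882 ± 3044 in control and 4142 ± 2054 with PTU, limma adjusted p = 0.00251, and 0.238 under the scaling on all probes). The probes with the largest drops had higher levels of their own. For tubb4b.L these were 8671 ± 1326 in control and 13151 ± 2646 with MMI (limma adjusted p = 0.389). With PTU its level was 19921 ± 5208 (limma adjusted p = 0.012). Probe 357 read 15758 ± 5691 in control and 42722 ± 17091 with PER (limma adjusted p = 0.0128). The part of these levels in the ratios was not tested. Array by array the separation was less even. The number of exposed arrays with a ratio below the lowest control ratio ran from 9 of 26 (probe 1165) and 10 (csnk1a1.L) to 26 (tubb4b.L). Such ratios show unequal change of 2 probes and not that either one stayed constant. All 18 share id2.L and the comparison that chose the gene, so they restate that difference and support nothing by themselves. The counts of ratios and arrays were not set against those of other probes.

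**Figure D4:**
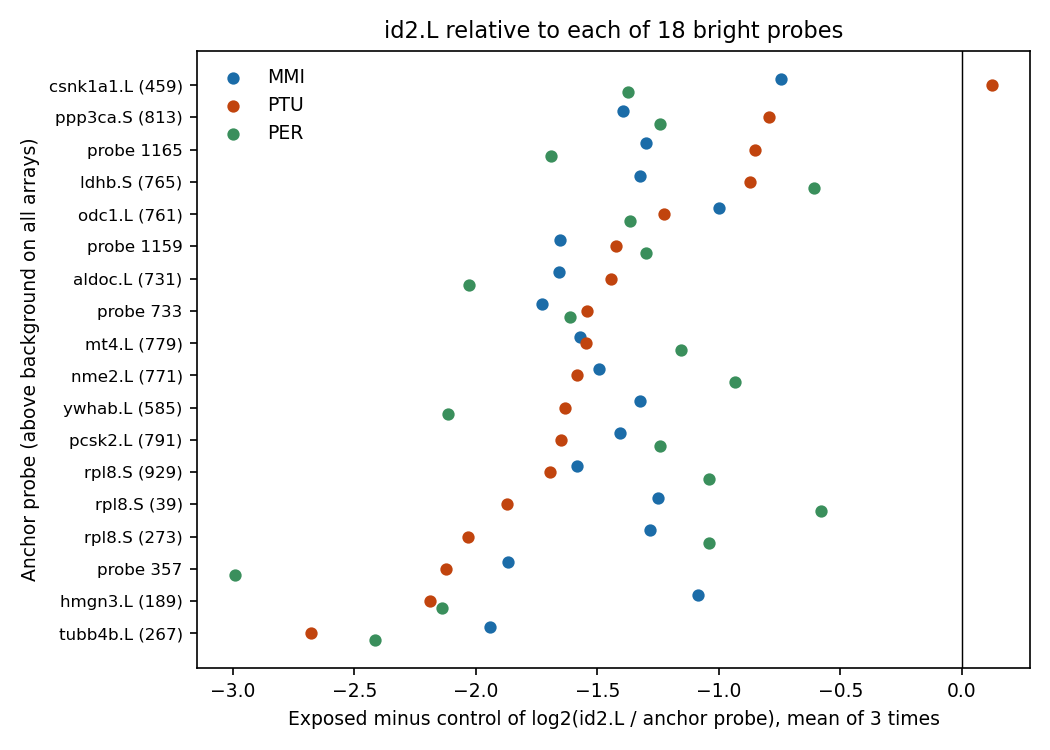
Exposed minus control change in the log2 ratio of id2.L to each of 18 probes above background on all arrays (horizontal axis, mean of 3 times), one line per probe with its probe number. Points are the 3 compounds; all lie below 0 except csnk1a1.L with PTU (0.12).

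Whether the compounds differed from each other was tested with limma over all 35 arrays, as the mean over times and at each time, in 12 comparisons. Averaged over times, PTU differed from MMI by -0.16 (95% interval -0.80 to 0.47, limma adjusted p = 0.966). PER differed from MMI by -0.16 (-0.83 to 0.50, limma adjusted p = 0.938) and from PTU by -0.0016 (-0.66 to 0.66, limma adjusted p = 0.999). Two-sided exact permutation tests that shuffled arrays within each time gave p = 0.663, 0.638 and 0.996. Without the doubly labelled array the exact p was 0.828 for PER minus MMI (-0.10) and 0.868 for PER minus PTU (0.058). The differences were thus not larger than the spread between arrays, but the interval allows a PTU to MMI ratio from 0.575 to 1.39, and the concentrations were not matched.

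At single times limma called none of the 9 comparisons of compounds. The largest was at 48 h, where id2.L differed by -1.36 between PTU and MMI (interval -2.46 to -0.26, unadjusted p = 0.0177, limma adjusted p = 0.980) and by -1.28 between PER and MMI (interval -2.38 to -0.17, unadjusted p = 0.0249, limma adjusted p = 0.996). At 48 h all 3 PTU arrays lay below all 3 MMI arrays, whereas the PER array at 3073 overlapped with them. This order of arrays was not set against the share over all probes. At 24 h PTU minus MMI was 1.04 (interval -0.06 to 2.14, limma adjusted p = 0.611). The share of all probes called was 2.5% for PTU minus MMI at 96 h and 0.915% for PER minus PTU over the mean of times, and 0% in the other 10 comparisons. With the doubly labelled array left out, PER minus MMI at 48 h was -1.06 and PER minus PTU was 0.30.

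Time was then examined within each treatment, again with limma, in 12 comparisons, and none was called for id2.L. In control brain id2.L at 48 h differed from 24 h by -0.20, at 96 h from 24 h by -0.08 and at 96 h from 48 h by 0.13, with limma adjusted p = 0.931, 0.943 and 0.978. Over all probes limma called 0.674%, 5.39% and 1.58% in these comparisons. The interval of the ratio of 96 h to 24 h ran from 0.441 to 2.03.

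With MMI the difference of id2.L at 48 h from 24 h was 2.05 (interval 0.95 to 3.15, which is 4.14-fold, unadjusted p = 0.000732), and all 3 arrays at 48 h lay above all 3 at 24 h. After adjustment over 444 probes the limma p was 0.196, with 0% of all probes called. Where only the 95 probes above background on at least 18 arrays were tested, the same difference had a limma adjusted p of 0.00545, and over the 10 alternatives run it ranged from 0.00545 to 0.914. From 24 to 96 h the difference was 1.26 (interval 0.16 to 2.37, unadjusted p = 0.0262, limma adjusted p = 0.481, 0.226% of probes called), and from 48 to 96 h it was -0.78 (limma adjusted p = 0.994, 0% called). Of the 24 h arrays in these comparisons, 2 of 3 were not above background, and without MMI 24 h replicate 2, the lowest, the change to 48 h was 1.59. The separation of the 48 h from the 24 h arrays was not set against the share over all probes and is no result by itself.

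With PTU the largest time difference in size was 0.40, for 96 against 48 h. The limma adjusted p was 1.00 for 48 against 24 h, 0.995 for 96 against 24 h and 0.965 for 96 against 48 h. The share of all probes called was 1.82% for 96 against 24 h and 0% in the other comparisons. With PER the difference of id2.L at 96 h from 24 h was 1.43 (interval 0.20 to 2.66, 2.70-fold, unadjusted p = 0.0244), and the arrays of the groups did not overlap. The limma adjusted p was 1.00 and 0% of probes were called, as in the other PER time comparisons. Without the doubly labelled array this difference was 1.47. That array is among the few at 24 h, and the lack of overlap was not set against the share over all probes. In PER 48 minus 24 h that array stands in both groups, and the difference was 0.46 with it and 0.71 without it.

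**Figure D5:**
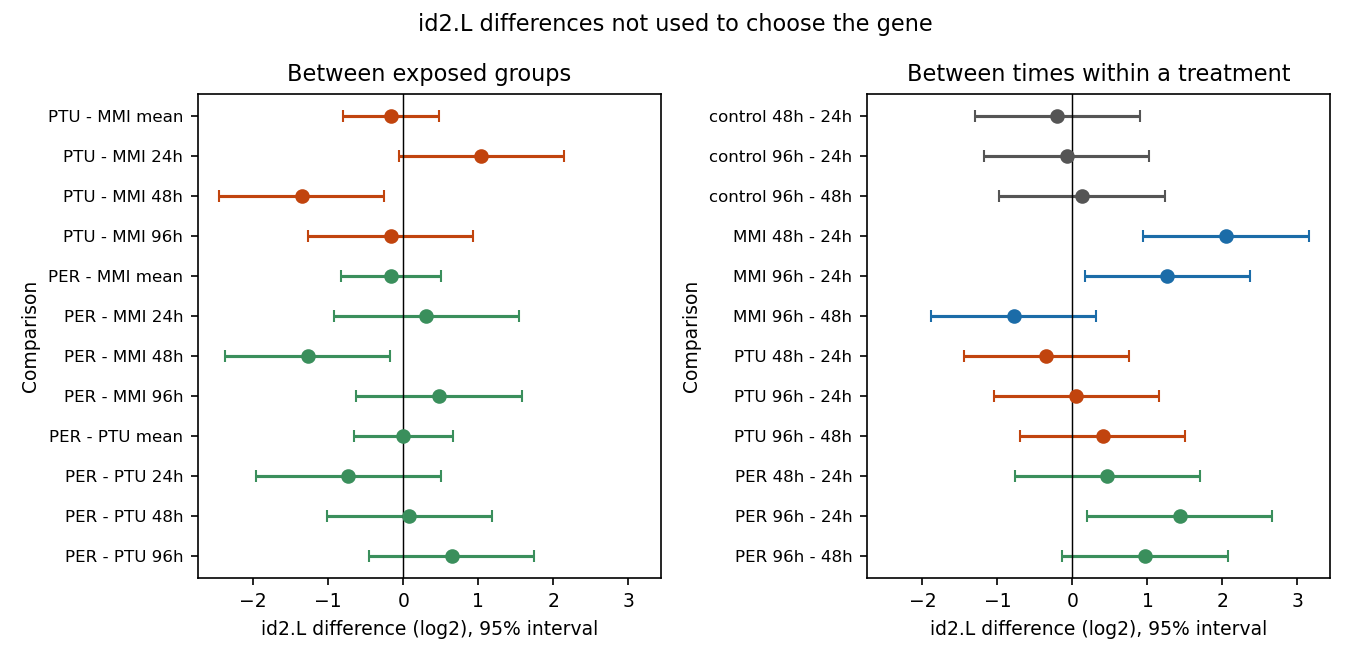
Differences of id2.L on the log2 scale (horizontal axis) with 95% intervals from limma, between exposed groups (left) and between times within a treatment (right). The interval of MMI 48 h minus 24 h lies farthest from 0 (0.95 to 3.15), and no comparison passed the threshold after adjustment over all probes.

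The change over time in the difference from control is built from the contrasts that chose the gene and is described with no test. For MMI the difference at 48 h less that at 24 h was 2.25 (SE 0.76), and at 96 h less 24 h it was 1.34 (SE 0.76). For PTU these changes were -0.15 and 0.13, with the same SE. For PER they were 0.67 and 1.51 (SE 0.80), and without the doubly labelled array 0.92 and 1.55. With quantile normalization the values for MMI were 1.27 and -0.10 and those for PER 0.0011 and 0.49, so their size or sign moved with scaling. Over the 24 comparisons tested between compounds and between times limma called none for id2.L, while 5 had an unadjusted p under 0.05. These comparisons share arrays, and the count of 5 was not set against the share over all probes, so it is no result by itself.

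The paired spots of id2.L measured the same probe, and they did not always read alike. Spot 100 was higher than spot 99 on 21 of 35 arrays. The log2 ratio of spot 100 to spot 99 ranged from -2.79 (MMI 24 h replicate 2) to 2.86 (PTU 24 h replicate 1), with a median of 0.17. Both extremes fell on arrays on which id2.L was not above background. Large ratios also occurred on arrays above background, among them 2.47 on PER 48 h replicate 1 and 1.87 on PTU 24 h replicate 3. By treatment the median ratio was 0.10 in control, -0.047 with MMI, 0.62 with PTU and 0.56 with PER. Over the 35 arrays, which share the group structure, the correlation of the paired spots on the log2 scale was 0.658. No cell of id2.L was empty.

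Other genes of the Id, bHLH, Notch and BMP group were few on the array. None of the other Id genes, id2.S, id3.L, id3.S, id4.L and id4.S, had a probe annotated to it. Only 250 of 449 probes carried a gene name, so listed genes could lie among the unnamed probes. Cross-hybridisation of the id2.S homeolog to the id2.L probe was not tested. Of 94 listed gene symbols, 10 genes besides id2.L had a probe, and 1 of the 10, msi1.S, was called by limma with each compound, in the upward direction, with 0 called lower. The shares of all probes called were 0.679%, 1.83% and 0.68% higher and 0.452%, 2.51% and 0.907% lower with MMI, PTU and PER. Musashi 1 is an RNA-binding protein of neural progenitors, which in mammals represses translation of the Notch inhibitor Numb. The msi1.S level was 833 ± 2218 in control (SD, n = 8, 3 above background), 3309 ± 1394 with MMI, 2986 ± 1058 with PTU and 3478 ± 648 with PER. Fitted differences from control were 2.62 (MMI), 2.56 (PTU) and 2.84 (PER), with limma adjusted p = 0.0476, 0.0179 and 0.0128. The gene msi1.S was also picked for these differences, so its p-values are no independent support. Without control 96 h replicate 1 the limma adjusted p was 0.160, 0.105 and 0.0666, and without the doubly labelled array it was 0.0798 with PER and 0.0555 with MMI, so these calls rest on single arrays. With single arrays left out in turn, the msi1.S call was kept in 6 of 18 runs with MMI and in 17 of 18 with PTU. The control arrays ranged from below 0 to 5141, overlapping with the exposed ones, and their low values pass through the floor at 0, so the fitted size depends on the offset. The median difference of the 10 genes was -0.014, -0.014 and 0.26 with MMI, PTU and PER.

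The remaining genes of that list were above background on 1 to 17 of 35 arrays. They were the bHLH factors neurod1.L, neurog2.L, myf5.L and max.L, and bmp7.1.L, tgfb2.L, acvr1.S, smad1.S and smad2.L of BMP and TGF-beta signalling. The proneural gene neurog2.L was above background on 8 arrays, 5 of them control, 0 MMI, 3 PTU and 0 PER. The neuronal differentiation factor neurod1.L was above background on 11 arrays, 0 of them control, 3 MMI, 4 PTU and 4 PER. Over all probes, the mean number above background on an array was 113 in control, 127 with MMI, 124 with PTU and 162 with PER. As array background differed between treatments, no fold is given for either gene. Both were added after values were seen, so their counts by treatment are no result about them.

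Genes of the thyroid hormone axis were listed too, since the compounds act on thyroid hormone synthesis. Of 47 symbols 14 genes had a probe, and limma called 0 higher and 0 lower with any compound over the mean of times. Over all probes the shares called were 0.679%, 1.83% and 0.68% higher and 0.452%, 2.51% and 0.907% lower with MMI, PTU and PER, so that 0 of 14 is near the background and is no result about these genes. The medians of their differences were -0.62, 0.04 and -0.45. Above background on at least 18 arrays were gh1.S, with differences of -0.28, -0.0071 and -0.44 (limma adjusted p = 0.786, 1.00 and 0.635), and fap.L, fibroblast activation protein, with -1.21, 1.01 and 0.75 (0.507, 0.528 and 0.705). The direct thyroid hormone targets klf9.L, a zinc finger factor, and thibz.L, a leucine zipper factor, were each above background on 3 of 35 arrays, which for klf9.L were 3 control arrays and for thibz.L 1 control, 1 PTU and 1 PER array. Most of their values lay within the noise and no fold is given.

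Likeness to id2.L was described by the Pearson correlation over the 12 group means, for the 66 other brighter probes, 36 of them gene-named. The groups share scaling and controls, and the median correlation was 0.04. The 5 highest gene-named probes were rpl35a.S (0.73), ldhb.S, lactate dehydrogenase B (0.58), katna1.S, the microtubule-severing subunit katanin p60 (0.44), csnk1a1.L (0.40) and ppp3ca.S, a calcineurin catalytic subunit (0.40). The lowest were tubb4b.L (-0.51), xnf7.L, a nuclear factor (-0.48), and coro1c.L, an actin-binding coronin (-0.44). Over the 35 arrays these correlations were 0.40, 0.41, 0.17, 0.34 and 0.37 for the first 5 and -0.33, -0.37 and -0.32 for the last 3, in the same order. The first place of rpl35a.S held under all 4 scalings, but the other places did not. With quantile normalization ppp3ca.S went from place 7 to place 29 of 66, katna1.S to place 20 (-0.051) and tubb4b.L to place 38. As deposited, tubb4b.L stood at place 53 and coro1c.L at place 52, both with a correlation of -0.18. Without the doubly labelled array rpl35a.S (0.74) and tubb4b.L (-0.58) stayed first and last, ldhb.S was at 0.55, csnk1a1.L at 0.54, ppp3ca.S at 0.40, xnf7.L at -0.47, coro1c.L at -0.40, and katna1.S fell to place 15 (0.20). The rpl35a.S levels were 5140 ± 2687 in control, 2288 ± 2308 with MMI, 2136 ± 1174 with PTU and 960 ± 261 with PER.

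The homeobox gene dlx2.L, which marks forebrain progenitors of inhibitory neurons, was above background on only 11 arrays and so outside that ranking, and its correlation with id2.L over the 12 group means was 0.92, with levels of 2320 ± 997 in control, 1003 ± 879 with MMI, 841 ± 561 with PTU and 631 ± 433 with PER. The corresponding correlation of msi1.S was -0.57. Without the doubly labelled array these were 0.91 and -0.56. Both genes were picked for their differences between exposed and control brain, as id2.L was. Their correlations with id2.L follow in part from that choice and are not comparable with the ranking above.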

How the data were processed

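The authors deposited linear intensity values as whole numbers for 898 spots on each of 35 arrays, hybridised with 32P-labelled cDNA per the labels. How arrays were scanned, background-corrected and scaled was not given in these sources. From 17.3% to 44.5% of an array's filled cells were 0 or negative, which shows a background subtraction. Another 677 cells held no value.

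The 2 neighbouring spots of each of 449 probes were averaged. A gene name was taken for 250 probes (247 symbols matched to RefSeq by Entrez ID, 3 kept as given). Background SD was the root mean square of an array's negative probe values. Array medians over the 18 probes above 2 background SDs on all arrays had an SD of 0.35 in log2, above a limit of 0.25, so arrays were scaled by them. Negative values were set to 0, an offset of 67.7 (5th percentile of positive values) was added and log2 taken. limma 3.58.1 (R 4.3.3) fitted 12 group means, p-values being adjusted by Benjamini-Hochberg over all probes with at least 2 values a group. Calls used an adjusted p under 0.05. The script was tested on simulated data. Figures used matplotlib 3.10.9 in Python 3.11.15.

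Members, lists and tests were chosen with earlier results of these data known. Genes were named as follows: id2.L, the 5 most and 3 least like it, list members called or above background on at least 18 arrays, and dlx2.L and msi1.S. The genes neurog2.L, neurod1.L, klf9.L, thibz.L, hbd.S, crx.L, myf6.L and chrna1.L were added after values were seen. The change over time in the difference from control was planned as a limma test and is given as a description, since its contrasts chose the gene. Replicate numbers recur across groups. Deviations of same-numbered arrays had correlations from -0.41 to 0.31 over 51 pairs, 11 above 0.1, and the main fit used no pairing. With so few arrays a group, these correlations cannot exclude a pairing by number. Alternatives covered scaling, offset, single spots, the probe filter, the groups fitted and arrays left out. Exact tests, ratios and correlations without the doubly labelled array were added after seeing the data. The number of arrays limits the precision, and the spread between arrays does not measure the spread between tanks.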

Additional observations from a re-analysis of the deposited data

Results flagged for a closer look

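Among the 9 control arrays, replicate 2 at 24 h stood far from the others in id2.L level. It read 9160 units where the next highest control array read 5819, and on the log2 scale this gap was 0.600 of the whole range of the control arrays, past the 95% critical value of Dixon's test. The 9 arrays pool 3 times, and the highest and lowest array of each treatment were examined in this way. Chance alone passes this value in about 5% of groups. Without it the mean difference from control over the 3 times was -1.37 with PER, against -1.48 with it.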

How the results depend on the processing

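Averaged over times, id2.L stayed below control with each compound under every alternative run. The size varied most with scaling, and the cause was not tested. With all-probe median scaling the means were -0.64 (MMI), -0.79 (PTU) and -0.82 (PER), and with quantile normalization the PER mean was -0.92. Between exposed groups and between times, estimates near 0 often changed sign.

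For single times against control, all-probe median scaling gave -1.11 (MMI 24 h), 0.14 (MMI 48 h), -0.41 (PTU 24 h), -0.91 (PTU 48 h), -1.35 (PER 24 h) and 0.19 (PER 96 h). Quantile normalization gave -1.49 (MMI 24 h), -0.70 (PTU 24 h), -0.92 (PTU 48 h) and -1.08 (PER 24 h). The values as deposited gave 0.12 (MMI 48 h) and -1.87 (MMI 96 h). Spot 99 alone gave -1.98 (MMI 24 h), 0.053 (MMI 48 h), -2.30 (PTU 24 h), -2.81 (PER 24 h) and -2.15 (PER 48 h), and spot 100 alone -3.26 (MMI 24 h). Leaving out single arrays moved MMI 48 h from -0.46 to 0.022.

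Between compounds, PTU minus MMI over times was 0.013 as deposited, 0.13 by quantile and 0.25 with spot 100. At 24 h it was -0.32 with spot 99, and at 96 h 0.47 as deposited and 0.31 by quantile. PER minus MMI over times was 0.18 by quantile and 0.26 with spot 100, and at 24 h -0.24 with all-probe scaling and -0.84 with spot 99. PER minus PTU over times was 0.045 by quantile, 0.0076 with the 25th percentile as offset, 0.016 with spot 100 and 0.058 without the doubly labelled array. At 48 h it was -0.43 as deposited, -0.39 with all-probe scaling, -0.16 by quantile and -0.49 with spot 99. Leaving out single arrays gave ranges of -0.31 to 0.031 for PTU minus MMI at 96 h, -0.15 to 0.64 for PER minus MMI at 24 h, -0.14 to 0.12 for PER minus PTU over times and -0.33 to 0.32 at 48 h.

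Between times, control 48 minus 24 h was 0.40 with all-probe scaling and 0.27 by quantile. Control 96 minus 24 h was 0.22 as deposited, 0.44 with all-probe scaling, 0.78 by quantile and 0.31 with spot 99, and 96 minus 48 h was -0.32 with spot 100. PTU 48 minus 24 h was 0.34 as deposited, 0.051 by quantile and 0.34 with spot 99, 96 minus 24 h was -0.21 with all-probe scaling and -0.49 with spot 100, and 96 minus 48 h was -0.12 with all-probe scaling. Leaving out single arrays gave -0.39 to 0.12 and -0.26 to 0.25 for control at 48 and 96 h against 24 h, and -0.59 to 0.036 and -0.18 to 0.41 for PTU. With only the 95 probes above background on at least 18 arrays tested, MMI 48 minus 24 h (2.05) passed the threshold in limma. The change in the difference from control between 24 and 48 h was, for MMI, 1.25 with all-probe scaling, 1.27 by quantile and 2.78 with spot 100. For PTU it was 0.41 as deposited and 0.64 with spot 99, and for PER 0.063 with all-probe scaling and 0.0011 by quantile. Between 24 and 96 h it was, for MMI, 0.58 as deposited, 0.16 with all-probe scaling, -0.10 by quantile, 0.50 with spot 99 and 2.44 with spot 100. For PTU it was -0.64 with all-probe scaling, -0.57 by quantile, 0.81 with spot 99 and -0.022 with spot 100, and for PER 0.49 by quantile and 2.11 with spot 99. Leaving out single arrays gave -0.47 to 0.24 and -0.19 to 0.49 for PTU at 48 and 96 h.

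The main fit did not pair the arrays by replicate number. With the replicate block PER minus PTU over times was 0.037, and no limma call of id2.L changed. The probes called against control by limma numbered 5, 19 and 7 with MMI, PTU and PER over times, of 442, 438 and 441 tested. They numbered 0, 7 and 3 when only the groups compared were fitted, and 4, 12 and 21 by quantile. Where only the 95 probes above background on at least 18 arrays entered, they numbered 10, 19 and 21, out of far fewer probes. With MMI 3 were called on the values as deposited. In control brain from 24 to 96 h limma called 24 probes, against 7 with all-probe scaling and 0 with only those groups fitted. The call of msi1.S was kept in 6 of 11 alternatives with MMI, 8 with PTU and 7 with PER.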
